A study of Mus musculus with 25 samples.

Results

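The genes described here are 10 mouse genes used as markers of alternatively activated and of resident tissue macrophages: Retnla, Chil3, Cd209b, Mrc1, Cd163, Folr2, Lyve1, Timd4, Mgl2 and Clec10a. They were taken by symbol from the 55450 genes of the count table, and each of the 10 passed the filter on low counts, as did 18031 genes in all. Retnla, Cd209b and Chil3 were put on the list because their values stood out in these same tumours, so their levels and fold changes are a description with no test. The other 7 were not chosen on their own values and were tested. The list was nevertheless chosen with earlier results of these data known, and Cd163, Lyve1 and Clec10a vary with Retnla within groups (given below). Their tests are therefore not independent of how the list was chosen.

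The tumours were melanomas of the line B2905, also called M4, grown in C57BL/6 mice. Treatment began at a mean tumour size of 75 mm3. Of 40 implanted mice, 30 received an antibody against CTLA-4, which is an inhibitory receptor on T cells. An IgG2b isotype antibody was given to 5 mice. Both antibodies were given at 10 mg/kg in 2 doses a week for 2 weeks. RNA was sequenced from 1 tumour each of 8 responders, which shrank, 6 stable tumours, which kept their size, 6 non-responders, which grew, and 5 IgG2b controls. The outcome was assigned 10 to 11 days after the last dose. All 25 tumours came from the same implanted line and mouse strain.

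Macrophages take up different programmes in different surroundings. The type 2 cytokines IL-4 and IL-13 act through the receptor chain IL-4Rα and the transcription factor STAT6, and the resulting state is called alternative activation. Retnla (RELMα, also Fizz1) and Chil3 (Ym1) are secreted products of that state in the mouse, and Mrc1, Mgl2 and Clec10a are lectin receptors that it raises. Folr2, Lyve1, Timd4 and Cd163 mark macrophages that reside in tissues, often near blood vessels, and take up debris, haemoglobin or dying cells. Several of these genes are not restricted to macrophages: Lyve1 is a defining receptor of lymphatic endothelium, Mgl2 and Clec10a are made by dendritic cells, and Chil3 is made by neutrophils and monocytes.

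The stretches upstream of Retnla and Chil3 are shown because the 2 genes are both textbook products of alternative activation and yet had different orders of level across the groups. The sequences are from RefSeq (build GRCm38.p6), read 5′ to 3′ on the strand of the gene, and stop before the start of the gene in both RefSeq and GENCODE. Capitals mark the STAT-type motif found by search.

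Retnla: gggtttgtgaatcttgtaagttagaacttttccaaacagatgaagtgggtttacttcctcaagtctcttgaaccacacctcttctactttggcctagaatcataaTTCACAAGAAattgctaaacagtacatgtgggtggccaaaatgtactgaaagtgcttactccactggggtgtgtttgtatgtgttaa

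Chil3: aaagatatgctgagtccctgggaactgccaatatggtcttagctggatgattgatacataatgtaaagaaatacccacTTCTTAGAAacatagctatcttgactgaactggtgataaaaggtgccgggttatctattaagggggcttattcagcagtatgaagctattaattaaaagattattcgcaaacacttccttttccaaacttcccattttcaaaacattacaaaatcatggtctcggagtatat

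The Retnla stretch is chr16:48842359-48842550 on the + strand, and the Chil3 stretch is chr3:106167565-106167814 on the - strand. The motif TTCNNNNGAA, the form with 4 spacer bases bound by STAT6, was searched in the 250 bases before each RefSeq start. The motif reads the same on both strands. Retnla held 1 match, whose first base lay at -145 from the start, and 5.85% of 32851 promoters of this length held one. Among the 8 genes with an entry in the promoter table (all but Lyve1 and Clec10a) no other had this motif. The form with 3 spacer bases, TTCNNNGAA, was looked at after the sequences had been seen. It was found once among the 8 genes, in Chil3 at -172, and in 7.02% of all promoters. A match is a match of letters and no measure of binding.

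The libraries differed in depth and composition. Totals ranged from 8.765 to 34.31 M counts per tumour. Protein-coding genes took 82.9 to 89.2% of counts in the 17 tumours that were not responders and 23.8 to 74.3% in 7 of the 8 responders. Responder 5, at 87.0%, lay with the other groups. It is the only responder that overlaps them in this share. A fit with the share as a covariate therefore cannot tell group from composition, and a fit without responder 5 leaves only responders of lower share. The labels number the libraries group by group, so an effect of processing order cannot be told apart from group. The 14 pan-macrophage genes checked (among them Csf1r, Adgre1, Cd68 and C1qa) had counts in every group, so RNA of macrophages was present throughout. Their mean log2 CPM (counts per M of TMM-scaled library) lay between 5.26 and 5.94 in controls, between 5.69 and 7.48 in non-responders, between 7.26 and 7.94 in stable tumours and between 6.27 and 7.73 in responders. In bulk tumours, fewer cells of a type and less RNA per cell cannot be told apart.

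The genes differed widely in level per length. By the deposited RPKM values, averaged per group, Chil3 spanned 0.320 in controls to 306.7 in responders. Retnla spanned 12.5 to 80.9 RPKM, Mrc1 18.7 to 32.1, Mgl2 13.1 to 33.4, Folr2 9.15 to 18.7, Clec10a 5.12 to 11.2, Lyve1 2.174 to 8.54 and Cd163 1.08 to 3.07. Timd4 (0.220 to 0.503 RPKM) and Cd209b (0.0932 to 0.676 RPKM) were the lowest. The ranges of Retnla, Mrc1 and Mgl2 overlap, so no order among these is drawn. The RPKM table is not a plain rescaling of the counts: Timd4 in responder 1 had 0 counts and 0.0813 RPKM.

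**Figure D1:**
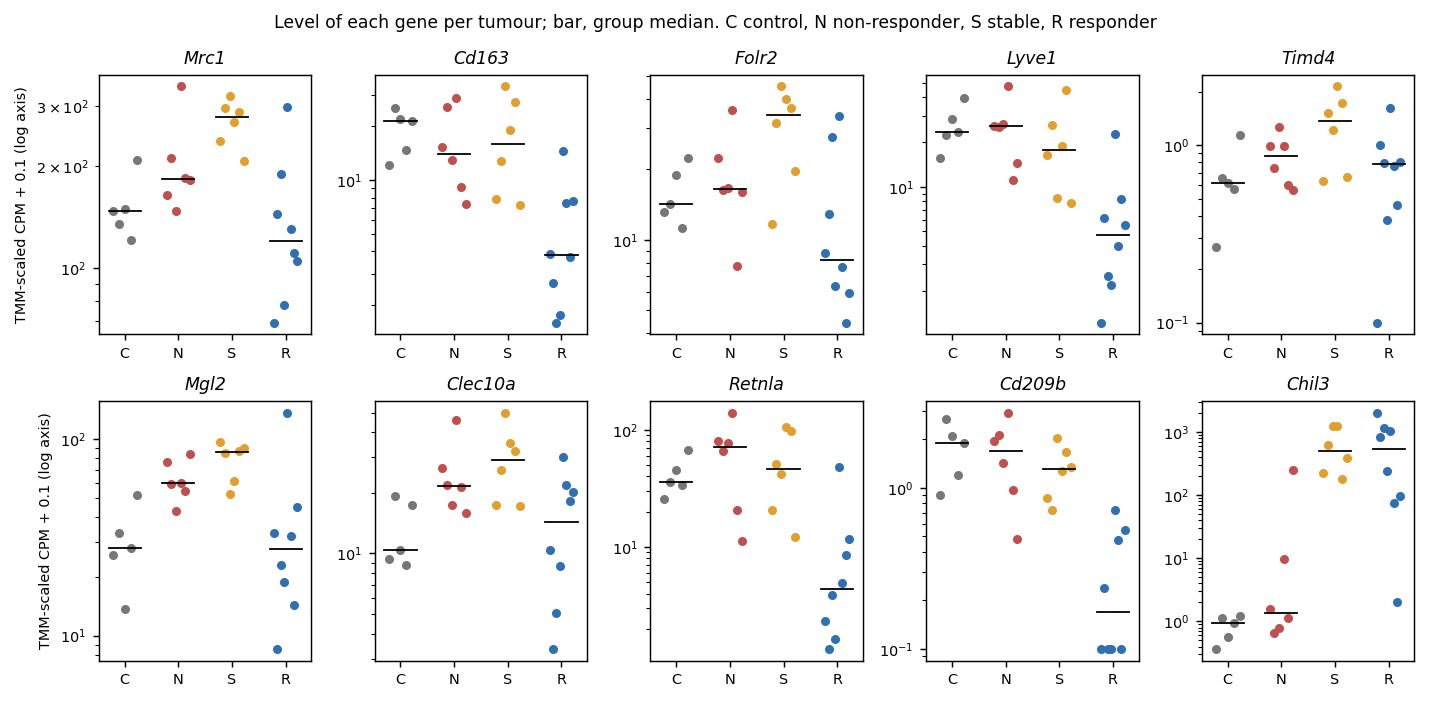
Level of each of the 10 genes in each tumour, as TMM-scaled CPM plus 0.1 on a log axis, by group (C control, N non-responder, S stable, R responder); each point is 1 tumour and the bar is the group median. Responders lie lowest for Retnla, Cd209b, Cd163 and Lyve1, with 1 responder high among them, while Chil3 is near 1 CPM in controls and at 178.9 CPM or more in stable tumours.

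Retnla (ENSMUSG00000061100.4, chromosome 16, 48842551 to 48844461 in GRCm38), the secreted product RELMα, was low in responders. The 5 controls had 25.6, 35.7, 45.3, 33.5 and 66.8 CPM, and the 6 non-responders had 80.2, 65.8, 77.6, 140.0, 20.5 and 11.1 CPM. The 6 stable tumours had 20.6, 51.4, 41.9, 105.1, 98.0 and 12.0 CPM. The 8 responders ran from 1.25 to 47.9 CPM with a median of 4.31 CPM. In 7 of the 8 responders Retnla lay below every control and every stable tumour, and in 6 of 8 below every non-responder. The exceptions were responder 5, at 47.9 CPM, and, against non-responders, responder 8, at 11.6 CPM. The log2 fold change of responders was -2.38 against stable tumours, -2.64 against non-responders and -1.97 against controls, with no test. Without responder 5 these were -3.46, -3.72 and -3.05, and with the share of protein-coding counts in the model they were -1.37, -1.58 and -0.84.

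Chil3 (ENSMUSG00000040809.10, chromosome 3, 106147554 to 106167564), the chitinase-like protein Ym1, had its lowest group mean in controls. It was at 0.267 to 1.14 CPM in the 5 controls. The 6 non-responders had 1.46, 0.562, 0.688, 9.47, 1.04 and 247.5 CPM, so 1 non-responder reached the range of the stable tumours. The 6 stable tumours had 221.2, 626.3, 1251, 1233, 178.9 and 383.1 CPM. The responders ran from 1.90 to 2020 CPM with a median of 535.0 CPM, and responder 7 held the lowest value. Every stable tumour and every responder lay above every control. The log2 fold change was 9.83 in responders and 9.76 in stable tumours against controls, and 3.97 and 3.90 against non-responders, with no test. The values against non-responders rest on non-responder 6: without it they were 7.98 and 7.91, and over fits that each left out 1 tumour they ran from 3.51 to 7.98 and from 3.60 to 7.91. Responders and stable tumours had a log2 fold change of 0.07, and the stable range lay within the responder range.

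Reads of Chil3 could be shared with its near copy Chil4, another chitinase-like gene. Chil4 had 0 counts in controls and non-responders and 3 counts in each of the other groups, so the deposited table assigned almost none of these reads to it. For Retnla, the intestinal relative Retnlb had 0 counts in every tumour. The neutrophil-expressed relative Retnlg was higher in responders (log2 fold change 4.00 ± 0.99 SE, adjusted p = 0.00116) and in stable tumours (4.71 ± 1.03 SE, adjusted p = 0.000651) than in controls.

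Markers of neutrophils and monocytes, which also make Chil3, are given beside it. Of 5 neutrophil markers that could be tested, all 5 were higher in responders and 3 in stable tumours than in controls, beside 36.1% and 22.2% of all tested genes. Of 9 monocyte markers 4 were higher in responders, near the share of all genes, and 6 in stable tumours. The summed level of 10 neutrophil markers was 2.63 to 4.97 CPM in controls, 3.39 to 31.4 CPM in non-responders, 27.9 to 55.7 CPM in stable tumours and 27.4 to 68.2 CPM in responders. Most of this sum was the 1 gene Csf3r, with group means of 3.07, 13.2, 31.8 and 33.6 CPM in the same order. The medians of the sum were 4.27, 14.7, 35.9 and 35.5 CPM. Other tested markers were near the floor in controls, such as Ltf (0.058 CPM) and Cxcr2 (0.259 CPM). Among the 10 markers, Ly6g, Camp, Ngp and Elane were at 0 in controls and almost absent elsewhere. Over the 8 responders they had 2, 2, 1 and 1 counts, over the 6 stable tumours 2, 7, 4 and 14, and over the 6 non-responders 1, 1, 0 and 1. The 9 monocyte markers summed to 1940 to 4207 CPM in controls, 2697 to 5802 CPM in non-responders, 3518 to 5919 CPM in stable tumours and 1882 to 10980 CPM in responders, and the median was 3528 CPM in controls and 2831 CPM in responders. Their part in the level of Chil3 was not tested.

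Among the lectin and scavenger receptors, Cd163 (ENSMUSG00000008845.9, chromosome 6, 124304656 to 124330527), the receptor for haemoglobin-haptoglobin complexes, was lower in responders than in each other group. The controls had 12.0, 25.2, 21.9, 14.7 and 21.4 CPM. The 6 non-responders had 15.2, 25.6, 12.8, 28.7, 9.03 and 7.30 CPM, and the 6 stable tumours had 7.77, 12.6, 33.3, 18.9, 27.3 and 7.16 CPM. The 8 responders ran from 1.503 to 14.5 CPM with a median of 3.70 CPM. In 7 of 8 responders Cd163 lay below every control, and in 5 of 8 below every stable tumour and below every non-responder, with responder 5 again the highest responder.

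Cd209b (ENSMUSG00000065987.12, chromosome 8, 3917655 to 3926844), the lectin SIGN-R1 of marginal zone and other tissue macrophages, was low everywhere. It had 0.800 to 2.58 CPM in controls, 0.382 to 2.83 CPM in non-responders and 0.634 to 1.95 CPM in stable tumours. It had 0 to 0.629 CPM in responders, 29 counts over 8 tumours. Responders 1, 3, 4 and 7 had no count, and a count of 0 there allows up to 0.670, 0.161, 0.419 and 0.271 CPM by a floor of 3 counts. All 8 responders lay below all controls and all stable tumours, although the responder 1 floor reaches into the stable range. Responder 5 (14 counts, 0.629 CPM) and stable tumour 2 (13 counts, 0.634 CPM) cannot be told apart at such counts. Only 6 of 8 responders lay below every non-responder. The fitted log2 fold changes, which depend on the prior count for such low values, were -2.36 against stable tumours, -2.70 against non-responders and -2.79 against controls. Without responder 5 they were -2.88, -3.21 and -3.30, and with the share of protein-coding counts in the model they were -0.97, -1.32 and -1.33. On log2(RPKM + 1), a scale that understates changes of low genes, limma gave -0.43, -0.55 and -0.61.

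Mrc1 (ENSMUSG00000026712.3, chromosome 2, 14229392 to 14332057), the mannose receptor CD206, and the galactose-type lectins Mgl2 and Clec10a had higher means in stable tumours than in controls (269.9 and 152.0 CPM for Mrc1, 78.9 and 30.4 CPM for Mgl2, 29.6 and 12.9 CPM for Clec10a). Mrc1 was at 120.7 to 207.5 CPM in controls, 147.8 to 342.8 CPM in non-responders, 207.4 to 322.1 CPM in stable tumours and 69.2 to 298.9 CPM in responders. In 7 of 8 responders Mrc1 lay below every stable tumour. Mgl2 was at 13.6 to 51.6 CPM in controls, 43.1 to 84.0 CPM in non-responders and 52.6 to 97.1 CPM in stable tumours. Responders spread over 8.45 to 136.6 CPM of Mgl2: 7 of 8 lay below every stable tumour and responder 5 above every one. Clec10a was at 8.63 to 19.2 CPM in controls, 15.8 to 46.0 CPM in non-responders, 17.1 to 49.9 CPM in stable tumours and 3.26 to 30.2 CPM in responders. Mgl2 and Clec10a are neighbouring, similar genes on chromosome 11 (70130329 to 70137550 and 70156197 to 70170834), and reads that fit both would be split by the counting.

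Of the resident markers, Lyve1 (ENSMUSG00000030787.4, chromosome 7, 110850607 to 110863239), the hyaluronan receptor, had the most negative log2 fold change of responders against controls among the 7 tested genes. The controls had 15.5, 22.2, 28.4, 23.4 and 39.7 CPM, and the 6 non-responders had 25.6, 25.2, 26.4, 47.4, 11.0 and 14.5 CPM. The 6 stable tumours had 16.3, 25.8, 8.36, 18.8, 44.6 and 7.72 CPM. The 8 responders ran from 1.12 to 22.5 CPM with a median of 4.64 CPM, and 7 of 8 lay below every control and every non-responder.

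Folr2 (ENSMUSG00000032725.10, chromosome 7, 101839988 to 101857194), a folate receptor of resident macrophages, was at 11.1 to 22.3 CPM in controls, 7.66 to 35.5 CPM in non-responders, 11.6 to 45.0 CPM in stable tumours and 4.34 to 33.6 CPM in responders. Responders 3 and 5, at 27.3 and 33.6 CPM, lay above every control and the other 6 responders were at 12.8 CPM or below. Timd4 (ENSMUSG00000055546.6, chromosome 11, 46810800 to 46844332), the phosphatidylserine receptor TIM-4 of long-lived resident macrophages, was near the limit of detection. It had 0.167 to 1.03 CPM in controls, 0.459 to 1.16 CPM in non-responders, 0.530 to 2.04 CPM in stable tumours and 0 to 1.53 CPM in responders, from 0 to 47 counts per tumour.

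Because Lyve1 also marks lymphatic vessels, endothelial markers are given beside it. The 6 lymphatic endothelial markers summed to 54.0 to 117.3 CPM in controls, 112.6 to 370.7 CPM in non-responders, 105.1 to 277.8 CPM in stable tumours and 24.6 to 184.6 CPM in responders, with none at 0 in any group. Of these 6, 4 were lower and none higher in responders than in non-responders: Mmrn1, Ccl21a, Reln and Flt4. Against stable tumours 1 of 6 (Mmrn1) was lower. Against controls none was lower and 2 were higher (Pdpn and Prox1), while Lyve1 was lower there. The 5 blood endothelial markers were all lower in responders than in controls and than in non-responders, and 3 of 5 were lower than in stable tumours. Of all tested genes, 28.9% were lower and 36.1% higher in responders than in controls. Against non-responders 23.8% were lower, and against stable tumours 17.8%. The 1 of 6 lymphatic markers lower than in stable tumours and the 2 of 6 higher than in controls were near these shares. The part of either vessel type in the Lyve1 difference was not tested.

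The first comparison asked how tumours that shrank differed from those that kept their size under the same antibody. Of the 7 tested genes, 5 were lower in responders than in stable tumours and none was higher, against 17.8% of all tested genes lower and 20.5% higher. The log2 fold change of Cd163 was -1.71 ± 0.45 SE (adjusted p = 0.00738), Lyve1 fell by 1.60 (SE 0.49, adjusted p = 0.0153) and Folr2 fell by 1.18 (SE 0.41, adjusted p = 0.0281). Mrc1 fell by 0.94 (SE 0.25, adjusted p = 0.00787) and Clec10a fell by 1.01 (SE 0.38, adjusted p = 0.0419). Mgl2, with a log2 fold change of -1.01 ± 0.42 (adjusted p = 0.0579), and Timd4, with -0.82 ± 0.44 (adjusted p = 0.142), did not pass. The median over the 7 genes was -1.01, beside 0.01 over all tested genes. The pan-macrophage genes moved the same way: 8 of 14 were lower and 1 (Mertk) was higher in responders.

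These calls moved with individual tumours and with library composition. Without responder 5 all 7 were lower, Mgl2 at a log2 fold change of -1.66 (adjusted p = 0.000198) and Timd4 at -1.13 (adjusted p = 0.0367). In that fit 49.26% of all tested genes were called in either direction. It leaves only responders with a protein-coding share below every other tumour, so group and composition cannot be told apart in it. Without stable tumour 5 only Mrc1 and Cd163 were called. The call of Clec10a held in 16 of 25 fits that each left out 1 tumour. It was lost with no filter on low counts (adjusted p = 0.0685), a stricter filter (0.0627), only the 2 groups in the fit (0.0885), protein-coding genes only (0.0615) and limma on log2(RPKM + 1) (0.0538) or log2(RPKM + 0.1) (0.0548). The call of Folr2 held in 18 of 25 such fits and was lost with no filter (adjusted p = 0.0600) and with only the 2 groups (0.0683). Mgl2 passed with DESeq2 (adjusted p = 0.0367) and with limma (0.0166 and 0.0172). With the share of protein-coding counts in the model none of the 7 was called, with log2 fold changes of -1.13 for Cd163 and -0.61 for Lyve1, and in that fit 0 of all 18031 genes were called. Since only responder 5 overlaps the other groups in that share, this fit cannot tell group from composition.

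The second comparison set responders against non-responders, the tumours that grew. Of the 7 tested genes, 2 were lower and none higher, against 23.8% of all tested genes lower and 25.2% higher, so the share was near that of all genes. Lyve1 fell by 1.90 (SE 0.49, adjusted p = 0.00357) and Cd163 fell by 1.59 (SE 0.45, adjusted p = 0.00643). The values for the other 5 were -0.54 ± 0.25 for Mrc1, -0.49 ± 0.41 for Folr2, -0.68 ± 0.42 for Mgl2, -0.75 ± 0.38 for Clec10a and -0.13 ± 0.45 for Timd4. Of the pan-macrophage genes none was lower, and Mertk and Cd14 were among those higher. Without responder 5, Mrc1 (-0.79, adjusted p = 0.00295), Mgl2 (-1.34, adjusted p = 0.000943) and Clec10a (-0.99, adjusted p = 0.0305) also passed. In that fit 55.88% of all tested genes were called in either direction. With the share of protein-coding counts in the model neither Cd163 (-1.02, adjusted p = 0.214) nor Lyve1 (-0.88, adjusted p = 0.292) was called.

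The third comparison set responders against the IgG2b controls. Cd163 fell by 1.81 (SE 0.47, adjusted p = 0.00179) and Lyve1 fell by 1.95 (SE 0.51, adjusted p = 0.00194), so 2 of 7 were lower and none higher, against 28.9% and 36.1% of all tested genes, so the share lower was near that of all genes. Mrc1 (-0.11 ± 0.27), Folr2 (-0.23 ± 0.44), Timd4 (0.35 ± 0.48), Mgl2 (0.36 ± 0.45) and Clec10a (0.19 ± 0.41) were not called. Here the pan-macrophage genes went the other way from Cd163 and Lyve1, with 12 of 14 higher in responders. With the share of protein-coding counts in the model, neither Cd163 (-1.20, adjusted p = 0.092) nor Lyve1 (-0.86, adjusted p = 0.24) was called, and Timd4 was called higher (1.74, adjusted p = 0.011). The comparisons of responders share the 8 responder tumours, and the comparisons with controls share the 5 controls.

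Stable tumours and non-responders were then compared. None of the 7 genes was called in either direction by edgeR, none had an unadjusted p under 0.05 and DESeq2 called none, against 7.08% of all tested genes higher and 7.86% lower. The values ran from -0.30 ± 0.52 for Lyve1 to 0.69 ± 0.44 for Folr2 and 0.69 ± 0.47 for Timd4. The SE of these values leaves room for differences of the size seen elsewhere.

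Against controls, 3 of the 7 genes were higher in stable tumours and none lower, beside 22.2% and 19.6% of all tested genes. The 3 were all lectin receptors: Mgl2 rose by 1.38 ± 0.49 (adjusted p = 0.0251), Clec10a rose by 1.197 ± 0.44 (adjusted p = 0.032) and Mrc1 rose by 0.83 ± 0.29 (adjusted p = 0.0226). Mgl2 in all 6 stable tumours lay above every control, and Mrc1 in 5 of 6. Folr2 (0.95 ± 0.47, adjusted p = 0.111), Timd4 (1.17 ± 0.50, adjusted p = 0.0641), Lyve1 (-0.35 ± 0.54) and Cd163 (-0.09 ± 0.50) were not called. With no filter on low counts none of the 3 was called, and without control 4 none was. With the pan-macrophage level as a covariate none was either: Mrc1 was at -0.62 (adjusted p = 0.244), Mgl2 at 0.087 (adjusted p = 0.947) and Clec10a at 0.32 (adjusted p = 0.807). In the same comparison 13 of 14 pan-macrophage genes and 8 of 9 dendritic cell markers were higher, the latter summing to 16.0 to 36.8 CPM in controls and 76.0 to 137.0 CPM in stable tumours. Their part in the lectin difference was not tested.

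Non-responders against controls gave no call among the 7 by edgeR, beside 10.6% of all tested genes higher and 3.29% lower. At an unadjusted p under 0.05 there were 2, Mgl2 (1.05 ± 0.48) and Clec10a (0.94 ± 0.44), and DESeq2 called none. Without responder 5, which enters this comparison only through the shared fit, Mgl2 passed (1.05, adjusted p = 0.0346).

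**Figure D2:**
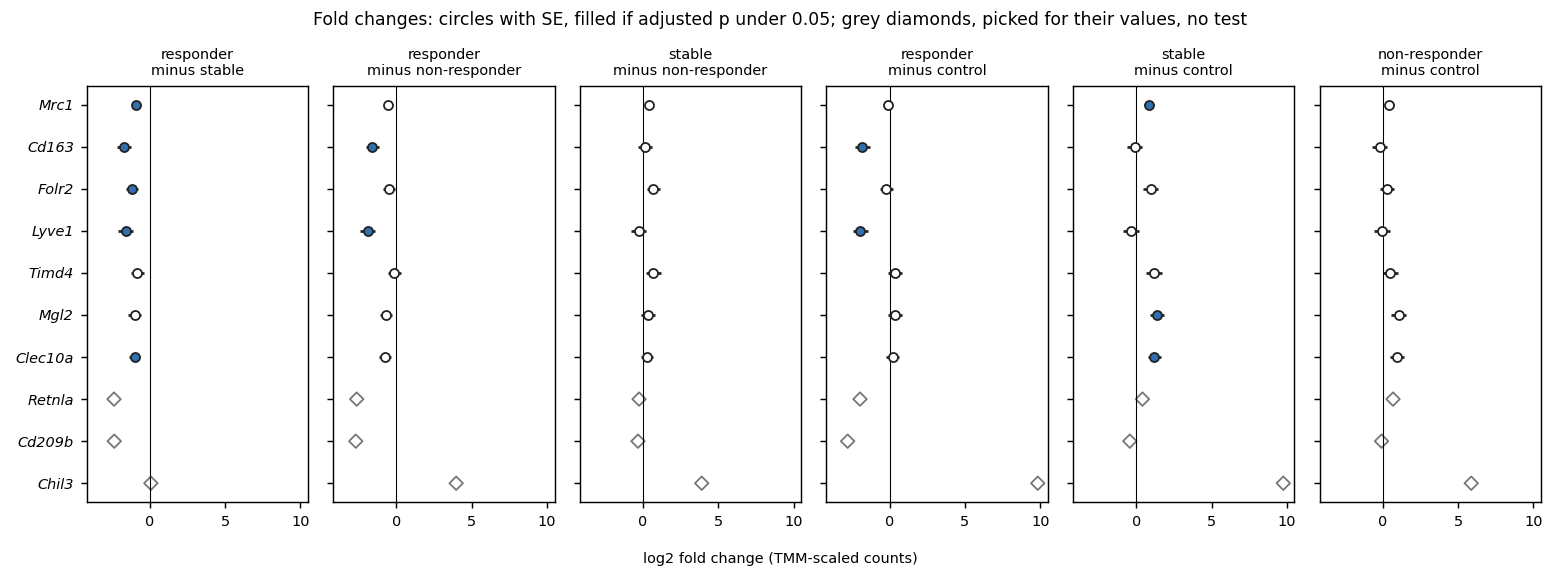
Log2 fold change of each gene in the 6 comparisons; circles are the 7 tested genes with their SE, filled where the adjusted p was under 0.05, and grey diamonds are Retnla, Cd209b and Chil3, which have no test. Cd163 and Lyve1 are filled and left of 0 in the 3 comparisons of responders, and Mrc1, Mgl2 and Clec10a are filled and right of 0 in stable tumours minus controls.

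Levels were also set against the macrophage content of each tumour, as the log2 CPM of a gene minus the mean log2 CPM of the 14 pan-macrophage genes. This is a description of levels, with no test. For Cd163 the difference was -1.31 ± 0.36 in controls (SD, n = 5), -2.63 ± 1.203 in non-responders (SD, n = 6), -3.65 ± 0.72 in stable tumours (SD, n = 6) and -4.75 ± 1.12 in responders (SD, n = 8). For Lyve1 it was -0.89 ± 0.35, -2.01 ± 1.10, -3.50 ± 1.00 and -4.64 ± 1.10 in the same order. For Mrc1 it was 1.70 ± 0.12, 1.12 ± 0.63, 0.48 ± 0.15 and 0.17 ± 0.39. Every control lay above every stable tumour and every responder for these 3 genes, while the stable and responder ranges overlapped. Mgl2 (-0.72 ± 0.56, -0.56 ± 0.54, -1.32 ± 0.62 and -2.02 ± 1.18) and Clec10a (-1.90 ± 0.36, -1.96 ± 0.80, -2.80 ± 0.36 and -3.26 ± 1.30) were near the same level in controls and non-responders. Retnla was at -0.22 ± 0.34, -0.90 ± 1.82, -2.19 ± 1.07 and -4.46 ± 1.62. Non-responders 5 and 6 stood apart from the other 4 in this measure: their Retnla was at -2.26 and -4.00 while the other 4 were at 0.043 to 0.593. Chil3 was lowest in controls by this measure, with -5.89 ± 0.64 in controls and 1.36 ± 0.99 in stable tumours, each stable tumour above each control.

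**Figure D3:**
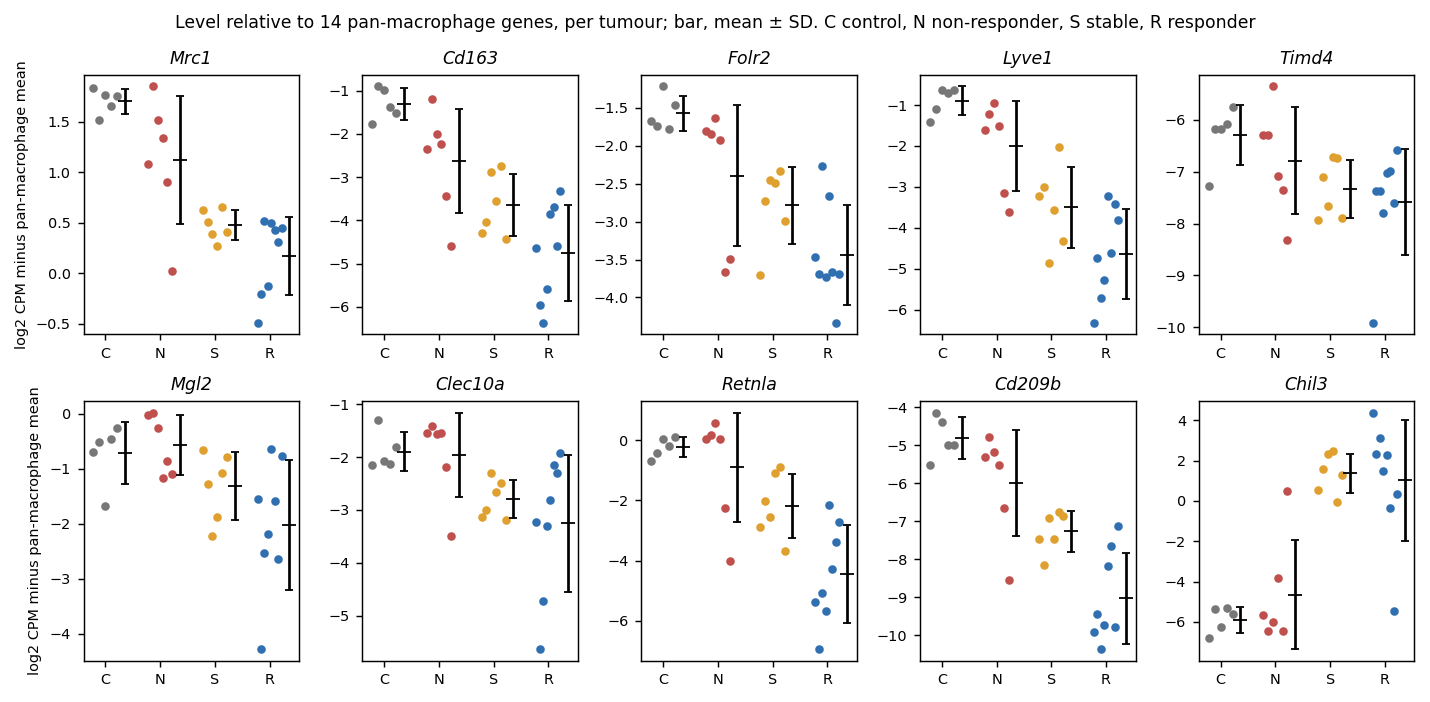
Log2 CPM of each gene minus the mean log2 CPM of 14 pan-macrophage genes, per tumour and group (C control, N non-responder, S stable, R responder), with the mean and SD as a bar beside the points. Controls lie highest for Mrc1, Cd163, Folr2 and Lyve1 on average, and Chil3 has its lowest mean in controls, with most non-responders in the control range.

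With the pan-macrophage level as a covariate in the test, 5 of the 7 genes were lower in responders than in non-responders: Mrc1 (-0.86, adjusted p = 0.00104), Cd163 (-1.82, adjusted p = 0.00371), Folr2 (-1.14, adjusted p = 0.0133), Lyve1 (-2.33, adjusted p = 0.00108) and Mgl2 (-1.01, adjusted p = 0.0442). Against controls 4 were lower: Mrc1 (-1.10, adjusted p = 0.00212), Cd163 (-2.40, adjusted p = 0.00489), Folr2 (-1.83, adjusted p = 0.00521) and Lyve1 (-2.95, adjusted p = 0.0018). Of all tested genes, 54.79% were called in either direction against non-responders in that fit and 58.98% against controls. These shares count both directions, while all the calls among the 7 genes were lower. No share by direction is given for this fit, so the counts of the 7 genes are not set against all genes. Against stable tumours none of the 7 was called under this covariate, nor was any of the 18031 genes. Neither stable tumours nor responders overlapped with controls in macrophage level, so such a fit extends beyond the levels these groups share.

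Other genes of resident tissue macrophages were examined as a list of 20, of which 19 were tested and Vsig4 was too low. The list was chosen with earlier results of these data known. It holds Cd209a, Cd209d, Cd209f and Cd209g, relatives of the picked Cd209b, and Cd209f and Cd209g vary with Retnla within groups (given below). Its counts are therefore not independent of how the list was chosen. Against stable tumours 11 of 19 were lower in responders and none higher, beside 17.8% and 20.5% of all tested genes, with a median log2 fold change of -1.17. Fcna, the lectin ficolin A, was at 8.46 ± 6.34 CPM in stable tumours and 1.80 ± 1.86 CPM in responders (log2 fold change -2.16 ± 0.60 SE, adjusted p = 0.00991). The Cd209b relatives Cd209f (-2.002 ± 0.64 SE, adjusted p = 0.0181), Cd209d (-1.56 ± 0.50 SE, adjusted p = 0.0188) and Cd209g (-1.56 ± 0.61 SE, adjusted p = 0.0467) were also lower. Against non-responders 10 of 19 were lower and none higher (median -0.89), beside 23.8% and 25.2% of all tested genes, led by Fcrls, an Fc receptor-like gene, at 22.5 ± 9.28 CPM in non-responders and 3.88 ± 3.09 CPM in responders (-2.47 ± 0.42 SE, adjusted p = 0.000144). Cd209f had a log2 fold change of -2.15 ± 0.64 SE there (adjusted p = 0.00864), and Cbr2, a carbonyl reductase of resident macrophages, had -1.94 ± 0.48 SE (adjusted p = 0.0025).

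Against controls 7 of 19 were lower and 5 higher in responders (median -0.55), beside 28.9% and 36.1% of all tested genes, so neither share stood far from that of all genes. The lower genes included Fcrls (-2.75 ± 0.43 SE, adjusted p = 1.04e-05), Ednrb, the endothelin B receptor, which melanocytes also make (-2.62 ± 0.58 SE, adjusted p = 0.000474), and Cbr2 (-2.55 ± 0.50 SE, adjusted p = 0.000118). Marco, a scavenger receptor, was higher (2.80 ± 0.70 SE, adjusted p = 0.00127). In stable tumours 7 of 19 were higher and 1 (Fcrls) lower than in controls, beside 22.2% and 19.6% of all tested genes. Among the higher were Marco (3.89 ± 0.74 SE, adjusted p = 0.000178), the chemokine Ccl8 (2.45 ± 0.53 SE, adjusted p = 0.000615) and Igf1 (1.43 ± 0.24 SE, adjusted p = 4.96e-05). None of the 19 was called between stable tumours and non-responders, and 4 were higher in non-responders than in controls (Marco, Igf1, Maf and Stab1), beside 10.6% of all tested genes. Cd209a is on this list and also among the dendritic cell markers.

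The type 2 cytokine pathway and its macrophage targets made a list of 24, of which 22 were tested. This list, too, was chosen with earlier results of these data known. The cytokines themselves did not pass the filter: Il4 had 21 counts over all controls, 8 over non-responders, 26 over stable tumours and 20 over responders, and Il13 had 5, 19, 35 and 37. The receptor chain Il4ra was at 50.6 ± 19.3 CPM in controls, 81.6 ± 30.4 CPM in non-responders, 154.7 ± 43.4 CPM in stable tumours and 139.3 ± 42.4 CPM in responders (SD), and was higher in responders than in controls (log2 fold change 1.46 ± 0.27 SE, adjusted p = 5.3e-05) and in non-responders (0.77 ± 0.24 SE, adjusted p = 0.012). Stat6 was at 138.1 to 161.5 CPM as a group mean and was called in none of the 6 comparisons.

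Against controls, 14 of the 22 genes were higher and 1 (Pparg) lower in responders, with a median log2 fold change of 1.51, and 17 were higher and none lower in stable tumours, with a median of 1.78. Of all tested genes, 36.1% were higher and 28.9% lower in responders, and 22.2% were higher and 19.6% lower in stable tumours. Pdcd1lg2, the PD-1 ligand PD-L2, was at 1.32 ± 1.03 CPM in controls, 46.9 ± 9.40 CPM in stable tumours (5.18 ± 0.71 SE, adjusted p = 4.59e-06) and 39.6 ± 17.6 CPM in responders (4.93 ± 0.69 SE, adjusted p = 2.94e-06). Arg1, the arginine-degrading enzyme of alternative activation, was at 16.5 ± 9.74 CPM in controls, 254.6 ± 112.9 CPM in stable tumours (3.95 ± 0.98 SE, adjusted p = 0.00238) and 248.7 ± 199.9 CPM in responders (3.91 ± 0.96 SE, adjusted p = 0.00123). Several of the highest genes here, such as Socs1, Cish and Il2rg, are also made by T cells, and all 6 T cell markers were higher in these 2 comparisons. Of the 14 pan-macrophage genes, 12 were higher in responders than in controls (median 1.25) and 13 in stable tumours (median 2.12), and none was lower. The part of T cells or of macrophage content in the list was not tested.

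Of 22 genes, 12 were higher and none lower in stable tumours than in non-responders (median 0.93), beside 7.08% and 7.86% of all tested genes, among them the chemokine Ccl22 (1.26 ± 0.40 SE, adjusted p = 0.0361) and Cd200r1, an inhibitory receptor of myeloid cells (1.08 ± 0.29 SE, adjusted p = 0.0164). In responders 7 were higher and 1 lower than in non-responders (median 0.52), beside 25.2% and 23.8% of all tested genes, so the share higher was near that of all genes. These were led by the kinase Jak3 (1.37 ± 0.19 SE, adjusted p = 2.88e-05). Between responders and stable tumours 2 were higher (Jak3 and Tyk2) and 4 lower (Il33, Il13ra1, Jak1 and Klf4), with a median of -0.37, beside 20.5% and 17.8% of all tested genes. Il33, an alarmin that induces type 2 cytokines, fell by 1.11 (SE 0.32, adjusted p = 0.0108). In non-responders 10 were higher and none lower than in controls (median 0.77), beside 10.6% and 3.29% of all tested genes. The pan-macrophage genes had medians of 0.84 in stable tumours against non-responders and 1.23 in non-responders against controls. For responders their medians were 0.12 against non-responders and -0.84 against stable tumours. The part of macrophage content in these comparisons was not tested.

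**Figure D4:**
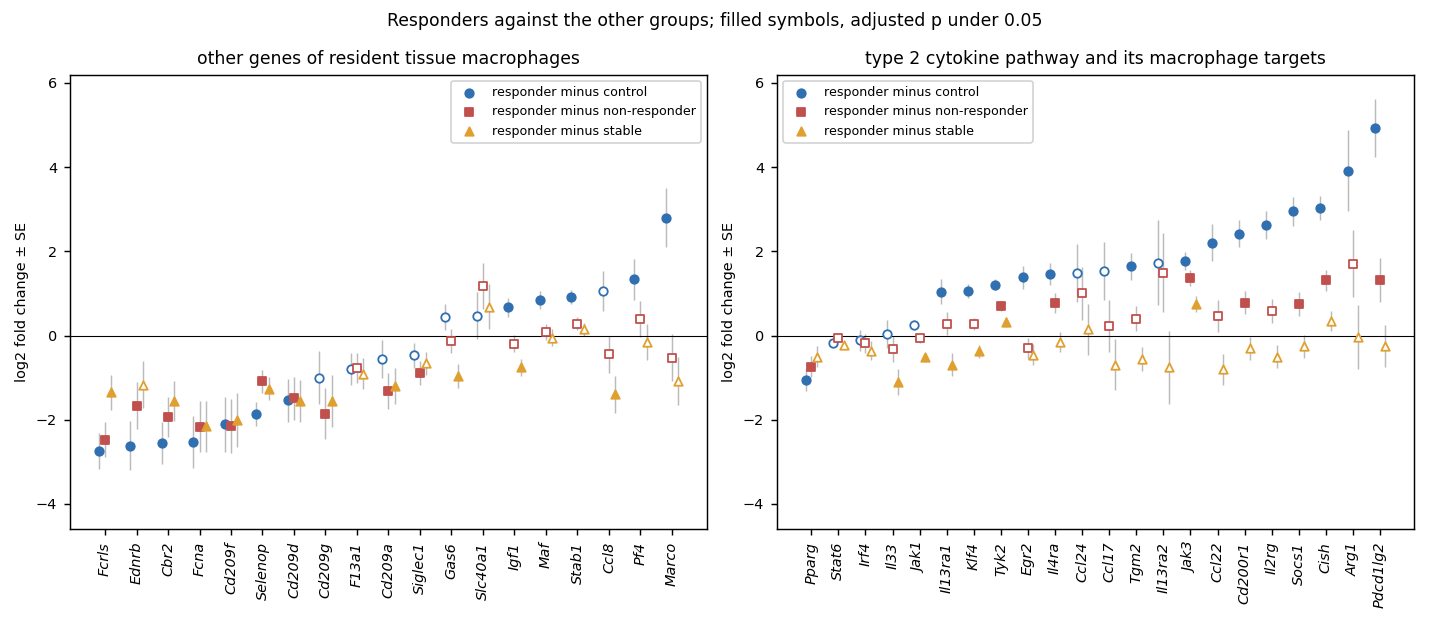
Log2 fold change with SE of responders against controls (circles), non-responders (squares) and stable tumours (triangles) for 19 other genes of resident tissue macrophages and 22 genes of the type 2 cytokine pathway, filled where the adjusted p was under 0.05. The resident genes from Fcrls to Cd209d lie below 0 in all 3 comparisons, whereas most type 2 genes lie above 0 against controls and near 0 against stable tumours.

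Within groups, the 10 genes did not vary as 1 block. Spearman's rho of log2 CPM over the 25 tumours, after each group's mean had been subtracted, is given as a description, since all genes share the same libraries. Cd163 varied with Clec10a (0.886), Cd209b (0.828) and Retnla (0.772), and Retnla also with Lyve1 (0.753) and Clec10a (0.751). Mrc1 varied with Folr2 (0.738) and less with Cd163 (0.398). Chil3 and Retnla had a rho of -0.188, and Chil3 was nearest to Folr2 among the 10 (0.529). Mgl2 had a rho between -0.026 and 0.262 with each of the other 9, its neighbour Clec10a included (0.258).

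Over all tested genes with a standard name, those most like each gene were found by the same measure. For Retnla they were the lectin genes Cd209f (0.868), Clec4b1 (0.840) and Cd209g (0.826). For Chil3 they were Mmp12, the macrophage elastase (0.905), the coagulation factor F10 (0.898) and Pld3 (0.890). For Cd163 and Clec10a the first was the other of the pair, and the complement component C6 was second for both (0.859 and 0.871). For Mrc1 it was Serpinf1 (0.898), and for Folr2 it was Tpp1, a lysosomal protease (0.901). For Lyve1 it was Retnla, for Cd209b it was Cd163, for Timd4 it was the matrix gene Mfap5 (0.788) and for Mgl2 it was the chemokine Ccl22 (0.741).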

How the data were processed

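RNA was sequenced from 25 tumours. Per the labels' protocols, libraries were made with a kit for stranded total RNA, although polyA RNA is given as the molecule; which holds is not known. The submitters' processing notes name bcl2fastq 2.17, Trimmomatic, STAR 2.5.1, RSEM 1.2.22 and build mm10. The authors deposited expected counts (estimated counts, 5.64% of values not whole) for 55450 genes, all of which matched GENCODE M21. They were rounded to whole numbers here. The authors also deposited RPKM values for 19522 symbols (19518 unique symbols used), whose normalization is not given in the sources used here.

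Counts were tested with edgeR 4.0.16 in R 4.3.3: filterByExpr by group, TMM scaling, 4 group means over all 25 tumours, robust quasi-likelihood tests of 6 comparisons, two-sided, with Benjamini-Hochberg adjustment over 18031 genes. Genes with an adjusted p under 0.05 are called. Log2 CPM used a prior count of 2. Replicates are separate tumours, numbered in record order. No pair looked duplicated, with a lowest chi-square per gene of 17.07. Floors use 3 counts and cover counting error only. Outliers were sought by Dixon's rule in 40 groups of values, with 0 found.

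The members and lists were chosen with earlier results of these data known. From each list, at most 4 called genes with the highest absolute fold change and a mean of at least 1 CPM were named per comparison. Genes given otherwise (Il4, Il13, Il4ra, Stat6, Tyk2, Klf4 and those that complete a count) were named as the pathway's own cytokines and receptor or after their values were seen. Like genes were the 3 with the highest rho. The result of 1 gene is not reported here. The alternatives tried were RLE size factors, DESeq2 1.42.0, no filter, a stricter filter (a mean count of 50, and 1 CPM in 5 tumours), only the 2 groups compared, the protein-coding share or pan-macrophage level as a covariate, protein-coding genes only, limma 3.58.1 on log2(RPKM + 1) and log2(RPKM + 0.1) with at least 0.5 RPKM in 5 tumours, and leaving out each tumour. On simulated data, with 18031 genes, the test found 92% of the 4-fold and 59% of the 2-fold differences for responder minus stable, and 85% and 34% for non-responder minus control. The differences were put into a small set of genes above a count limit, equally up and down, on 1 base profile shared by all groups. The percentages therefore do not describe recovery for genes with few counts or between libraries that differ in composition.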

Additional observations from a re-analysis of the deposited data

How the results depend on the processing

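No paired analysis was possible because the labels carry no replicate numbers shared between groups. The number of the 7 tested genes called was 5 for responder minus stable, and it became 3 where lowly counted genes were kept, 3 in a fit of those 2 groups alone, 0 with a covariate for the share of protein-coding counts, 0 with one for the pan-macrophage level, and 2 to 7 when each tumour was left out. It was 3 without responder 4, responder 7, stable tumour 3 or stable tumour 4, and 2 without stable tumour 5. For responder minus non-responder, 2 became 0 with the protein-coding share, 5 with the pan-macrophage level and 2 to 5 when each tumour was left out, with 5 without responder 5. For responder minus control, 2 became 1 with the protein-coding share, which was Timd4 and higher, and 4 with the pan-macrophage level, and it stayed 2 when each tumour was left out. For stable minus control, 3 became 0 with no filter, 5 with only the 2 groups, 0 with the pan-macrophage level and 0 to 4 when each tumour was left out, with 1 without control 1 or control 3 and 0 without control 4. For non-responder minus control, 0 became 1 with only the 2 groups and 0 to 1 when each tumour was left out. Stable minus non-responder stayed at 0 in every fit. Apart from the construction of fits with fewer tumours or genes, the cause was not tested. Over all 18031 genes, both covariates brought the calls of responder minus stable from 6891 to 0, and the pan-macrophage level brought those of stable minus non-responder from 2693 to 0 and of stable minus control from 7531 to 917. The protein-coding share brought responder minus non-responder from 8823 to 1810. As only responder 5 overlaps the other groups in that share, group and composition cannot be told apart there. The pan-macrophage level raised the calls of responder minus non-responder to 9880 and brought those of responder minus control from 11723 to 10634.

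Of 1452 alternative values of the 7 genes, 1332 kept direction and call, 54 lost the call, 27 gained one and 39 changed sign. Of these only Mrc1 in stable minus control had been called, and none was called after the change. With the protein-coding share the sign turned for Timd4 in responder minus stable (0.45), for Mrc1 (0.046), Folr2 (0.11) and Timd4 (1.16) in responder minus non-responder, for Mrc1 (0.53) and Folr2 (0.41) in responder minus control and for Lyve1 (0.022) in non-responder minus control. With the pan-macrophage level it turned in stable minus non-responder for Mrc1 (-0.38), Cd163 (-0.43), Folr2 (-0.62), Timd4 (-0.018), Mgl2 (-0.35) and Clec10a (-0.22), in responder minus control for Timd4 (-0.41), Mgl2 (-0.58) and Clec10a (-0.33), in stable minus control for Mrc1 (-0.62) and Folr2 (-1.32) and in non-responder minus control for Mrc1 (-0.24) and Folr2 (-0.70). Limma on RPKM gave Cd163 in stable minus non-responder as -0.096 with a pseudocount of 1 and -0.14 with 0.1, and the stricter filter gave Mrc1 in responder minus control as 0.0030. When each tumour was left out, log2 fold changes that crossed 0 ran from -0.44 to 0.035 for Timd4 in responder minus non-responder, from -0.15 to 0.35 for Cd163 in stable minus non-responder and from -0.36 to 0.071 for Cd163 in stable minus control. In responder minus control they ran from -0.36 to 0.022 for Mrc1, from -0.29 to 0.63 for Mgl2 and from -0.052 to 0.37 for Clec10a. In non-responder minus control they ran from -0.018 to 0.42 for Folr2 and from -0.33 to 0.16 for Lyve1. Timd4 and Cd209b had at most 47 and 70 counts per tumour, which limits both.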
